A study of Homo sapiens with 32 samples.

Results

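The genes described here encode interferons, interferon receptor chains and the kinases bound to those chains. They are 10 genes, taken by their symbols from a list made with earlier results of these data known: the ligands IFNB1 and IFNL1, the type I receptor chains IFNAR1 and IFNAR2, the type II receptor chains IFNGR1 and IFNGR2, the type III receptor chain IFNLR1, and the kinases JAK1, JAK2 and TYK2. All 10 were found among the 60107 genes of the tables, and 8 of them were among the 12406 genes with a mean deposited normalized count of at least 10, which were tested. IFNB1 and IFNLR1 had too few reads for that test.

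Interferon beta, a type I interferon, binds IFNAR1 together with IFNAR2. Interferon gamma binds IFNGR1 with IFNGR2, and the lambda interferons bind IFNLR1 with IL10RB. TYK2 and JAK1 sit on the type I and type III receptors and JAK1 and JAK2 on the type II receptor, where they phosphorylate STAT proteins that switch on interferon target genes. In monocytes, LPS, a component of the bacterial outer membrane, acts on TLR4 and, through the adaptor TICAM1, on the transcription factors IRF3 and NF-kappaB, which induce IFNB1.

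RNA of THP-1 cells, a human monocytic leukaemia cell line, was sequenced from the 3′ end as 32 libraries, 4 in each of 8 groups. KO cells lack ACLY, the enzyme that makes cytosolic acetyl-CoA from citrate. WT, HA and SA cells are ACLY knockout cells transduced with a lentivirus that expresses wild-type ACLY, the catalytically inactive mutant H760A or the phosphorylation-deficient mutant S455A from an EF promoter, followed by puromycin selection. All 4 lines thus carry the knockout, and whether KO cells received an empty virus is not given in the sources used here. Each line was left untreated or treated with LPS for 3 h, at 100 ng/ml according to the labels, while a paragraph of the study's methods gives a lower concentration. The labels name 1 line per genotype. The 4 libraries of a group are therefore repeats of a single line, p-values measure only the spread between these libraries, and other differences between the lines cannot be told apart from the genotype.

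The libraries held 6504099 to 14750815 reads on genes, and levels are given as normalized counts on a scale shared by the 32 libraries. Counts from the 3′ end do not grow with gene length, but levels are compared here only between groups for a given gene. Where groups are said not to overlap, the share of all genes with such a separation was not counted. The main axis of within-group spread held 52.1% of the within-group variance over 12398 genes and was computed without the genes described. The libraries lowest on it in their groups were replicate 3 of WT and KO and replicate 1 of HA and SA, both with and without LPS. In 6 of the 8 groups the gap from this library to the next was over 0.5 of the range of the group's scores, while in untreated HA and SA it was 0.219 and 0.337 of the range and the scores were spread more evenly. The 8 lowest libraries had 13460 to 16991 genes with reads, compared with 16496 to 18552 in the other 24 libraries. The ACLY count did not separate KO from WT (log2 fold change -0.21 untreated and -0.53 after LPS, limma adjusted p = 0.884 and 0.358), and reads from the 3′ end of a transcript do not show whether its protein is made. All 10 monocytic markers had reads enough to be tested, and their summed level was 24419 to 43378 in the KO and HA libraries and 12593 to 15688 in the WT and SA libraries. LYZ, the lysozyme gene and one of the most abundant of these markers, was up-regulated in KO and HA by 1.89 and 1.62 on the log2 scale without LPS and by 2.29 and 1.88 after LPS. The median log2 difference of the 10 markers from WT was 0.39 in KO and 0.11 in HA without LPS and 0.33 and 0.16 after LPS. Called higher were 3 of 10 in KO and 1 in HA without LPS and 1 each after LPS, and called lower after LPS were 1 in KO and 2 in HA. Of all genes tested, 1.80% in KO and 1.42% in HA were called higher without LPS and 2.14% and 1.16% after LPS. In either direction, 3.47% and 2.02% were called after LPS. Of the T cell markers, CD3E and CD3G had no reads, and 0 of 5 T cell, 0 of 5 erythroid and 0 of 5 epithelial markers passed the filter on low counts. PAX5, a transcription factor of B cells, did pass it and was up-regulated in KO relative to WT, by 1.70 without LPS and 1.99 after LPS, with means of 38.7 ± 11.8 in WT and 125 ± 19.4 in KO without LPS (SD, n = 4). It was also higher in KO than in HA without LPS, by 2.49. PAX5 is 1 of 5 B cell markers looked at. That list as a whole is not reported here, and PAX5 does not stand for it. The part of these shifts in the results below was not tested.

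Reads of IFNB1, the gene for interferon beta (ENSG00000171855; chromosome 9 of GRCh38, 21077104 to 21077942, minus strand), appeared almost only in KO cells after LPS. KO LPS replicates 1 to 4 held 46, 70, 0 and 5 reads, which are normalized counts of 54.6, 83.3, 0 and 3.92. Untreated KO replicates 1 and 2 held 1 read each and replicates 3 and 4 held none. Replicate 3, the KO LPS library without an IFNB1 read, is the lowest of its group on the axis of within-group spread. In the other lines after LPS, WT replicate 2 held 2 reads, HA replicate 2 held 3 and SA replicate 4 held 1, and the other 9 of these 12 libraries held none. No read was found in the 12 untreated WT, HA and SA libraries. The mean normalized count in KO cells was 35.4 ± 40.4 (SD, n = 4) after LPS and 0.585 ± 0.682 without it, and it was 0.434 ± 0.867 in WT cells after LPS. The difference of the means was 34.9 against untreated KO and nearly the same against WT after LPS, and neither passed a two-sided exact permutation test (exact permutation p = 0.143 for each, also after Benjamini-Hochberg adjustment over 2 tests), where the smallest p that 4 against 4 libraries allow is 0.0286, which is above the limit of 0.01 used for calls, so that no call could be made by this test. Without KO LPS replicate 3, both tests gave p = 0.0286, the smallest that 3 against 4 libraries allow by exact permutation. That library holds no IFNB1 read, so leaving it out separates the groups completely. Leaving out KO LPS replicate 1, 2 or 4 gave exact permutation p = 0.143. Leaving out an untreated KO or a WT LPS library gave 0.257. The other groups held at most 3 reads per library, too few for a comparison.

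IFNL1, the gene for interferon lambda 1 (ENSG00000182393; chromosome 19, 39296407 to 39298673, plus strand), was up-regulated in KO cells with and without LPS. Untreated KO replicates 1 to 4 held 15, 24, 4 and 23 reads, normalized counts of 19.2, 25.4, 5.41 and 21.2. The 4 untreated WT libraries held no read. Every KO library was thus above every WT library, and the pooled KO level was 24.3 times the limit that 3 reads over the WT group set. After LPS, the KO libraries had normalized counts of 81.8, 136, 38.3 and 63.4, and the WT libraries 0, 5.20, 1.17 and 3.96. The KO libraries again lay above all WT libraries, and the ratio of the means was 30.9. On the log2(normalized count + 1) scale the difference from WT was 4.05 without LPS (standard error 0.73, limma adjusted p = 4.75e-04) and 4.68 after LPS (limma adjusted p = 6.18e-05). The size of this difference depends on the pseudocount. It was 2.08 and 3.41 with a pseudocount of 5, and both were called. IFNL1 entered the test only through its level in KO cells, so the p-values of these differences are no independent support. Relative to HA, the KO libraries of IFNL1 overlapped without LPS (log2 difference 1.82, limma adjusted p = 0.399) and lay above all HA libraries after LPS (2.49, limma adjusted p = 0.179).

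HA cells held IFNL1 reads as well, in smaller numbers. The untreated HA libraries had normalized counts of 3.05, 3.19, 1.18 and 12.3 and lay above the WT libraries without a read. Pooled, they were at 6.83 times the limit that 3 reads over the WT group set. After LPS they had 3.48, 34.6, 8.91 and 17.1 and overlapped the WT libraries. Neither difference was called, at 2.24 without LPS (95% confidence interval 0.74 to 3.74, limma adjusted p = 0.0606) and 2.19 after LPS (0.69 to 3.69, limma adjusted p = 0.0973). With library weights, the difference after LPS was 2.60 and was called (limma adjusted p = 3.44e-03), beside 9.37% of all genes under the same weights. In SA cells, only replicate 4 held a read without LPS, and the libraries after LPS had 0, 5.78, 8.13 and 0.855. The difference between SA and WT was 0.24 without LPS (-1.26 to 1.74) and 0.19 after LPS (-1.30 to 1.69), so that changes of either sign lie within the intervals. IFNL1 passed the filter on low counts only through its level in KO cells, so it had to differ among the groups.

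**Figure D1:**
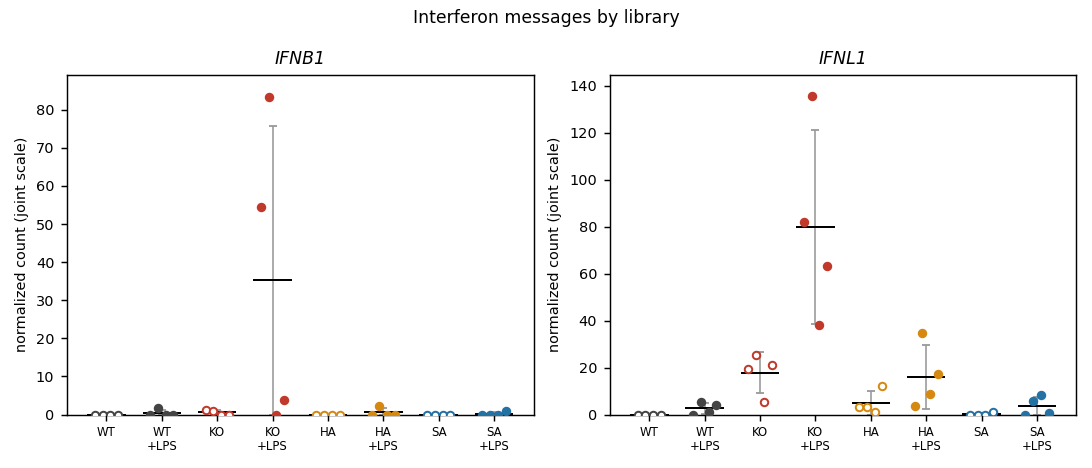
Normalized count (joint scale, vertical axis) of IFNB1 and IFNL1 in each of the 32 libraries, by group (horizontal axis). Open points are untreated libraries, filled points are libraries after LPS, from replicate 1 on the left to 4 on the right of a group, the black line is the mean and the grey bar the SD, drawn down to 0 at most. IFNB1 stands above 2.21 in 3 KO LPS libraries only, and the lowest KO LPS library for IFNL1, at 38.3, lies above every library of the other groups.

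In the KO line, IFNL1 went from 17.8 ± 8.66 to 79.8 ± 41.3 with LPS (SD, n = 4), and all 4 libraries after LPS lay above all 4 untreated ones. The log2 difference was 2.14 (standard error 0.73) and was not called (limma adjusted p = 0.319). The labels do not state a pairing. WT and KO libraries of the same number are treated as paired because their deviations from the group means correlated. In a fit of the KO libraries alone that blocks on this number the difference was called (standard error 0.30, limma adjusted p = 2.91e-03). That fit called 0.935% of all genes, compared with 0.580% in the main fit. In the WT line, 12 reads after LPS stood against none before, at least 3.99-fold, with 1 of the 4 LPS libraries at 0.

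The start regions of both ligand genes are shown because their reads differ most between groups and because letters bound by the factors downstream of TLR4 can be looked for there. These are the 150 bases before the start in RefSeq for GRCh38.p14, 5′ to 3′ on the strand of the gene, chr9:21077943-21078092 on the minus strand for IFNB1 and chr19:39296257-39296406 on the plus strand for IFNL1. Capitals mark matches to the interferon regulatory factor core AANNGAAA on either strand or to the kappaB decamer.
IFNB1: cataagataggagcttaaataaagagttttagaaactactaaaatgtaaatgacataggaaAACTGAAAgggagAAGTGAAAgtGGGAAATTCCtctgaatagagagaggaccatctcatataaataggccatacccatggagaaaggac
IFNL1: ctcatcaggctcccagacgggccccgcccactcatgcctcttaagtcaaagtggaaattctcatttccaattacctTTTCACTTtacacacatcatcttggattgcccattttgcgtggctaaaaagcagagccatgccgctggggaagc
The IFNB1 window held 2 core matches, the first at bases -89 to -82 and the next at -76 to -69 from the start, and a kappaB match at -66 to -57, with no overlap between them. The IFNL1 window held a single core match, on the opposite strand, at -74 to -67, and no kappaB match by this pattern. Of 35116 promoter windows of the same length, 11.9% held the core and 6.19% the kappaB decamer. The letters TTCNNNGAA, the core of the gamma-activated site, were in 3.66% of the windows and in none of the windows of the 9 genes that had an entry, all but IFNAR2. IFNGR2 matched the kappaB decamer at -99 to -90 and -13 to -4, and the kinases, IFNAR1, IFNGR1 and IFNLR1 matched neither pattern. A match gives the letters only, and binding was not measured here.

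The other 20 interferon genes looked at, 13 of type I alpha and 7 others including IFNG and the other lambda genes, added almost no reads. In 17 of them no read was found in any library, and IFNA10, IFNL2 and IFNL3 held 1, 5 and 2 reads over all 32 libraries. IFNG, the ligand of the type II receptor, had no read. The alpha genes resemble each other, as do IFNL2 and IFNL3, and their counts are uncertain for that reason.

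JAK2 (ENSG00000096968; chromosome 9, 4984390 to 5129948, plus strand), the kinase of the type II receptor, was the 1 kinase gene that was up-regulated in KO cells. Without LPS its normalized counts were 777, 623, 447 and 617 in KO libraries 1 to 4 and 392.2, 359, 237 and 376 in WT libraries. After LPS they were 1137, 863, 629 and 843 in KO and 425, 361, 358 and 420.0 in WT. All KO libraries lay above all WT libraries in both conditions, and within each of these groups replicate 3, the lowest on the axis, had the lowest count. The log2 fold change was 0.85 without LPS (standard error 0.17, limma adjusted p = 1.17e-03) and 1.12 after LPS (standard error 0.17, limma adjusted p = 2.87e-05). In bulk RNA, fewer cells that express a gene and less of its RNA per cell cannot be told apart.

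After LPS, JAK2 stayed called in all fits with 1 library fewer. Without LPS, its call was lost without KO replicate 1 (log2 fold change 0.73, limma adjusted p = 0.0101) and when the fit used only untreated WT and KO libraries (limma adjusted p = 0.0729). It was kept with the replicate block in those same libraries (limma adjusted p = 5.26e-04), beside 5.84% of all genes. Without the 8 libraries lowest on the axis (an alternative chosen after seeing the data), the log2 fold changes were 0.83 and 1.23 and both were called, as they were without only the 6 of them that lay far from the next library. The fit without 8 libraries called 4.97% and 7% of all genes, and that without 6 called 3.72% and 5.39%.

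In HA cells, JAK2 lay above WT in every library but did not pass the limit. The untreated HA libraries had 488, 447, 519 and 552 and the HA libraries after LPS 615, 659.5, 567 and 679, each above the highest WT library of its condition. How many of all genes separated HA from WT in this way was not counted. The log2 fold changes were 0.58 without LPS (limma adjusted p = 0.0347) and 0.69 after LPS (limma adjusted p = 0.0130). Without LPS it was called on the deposited scale (0.72, limma adjusted p = 5.38e-03) and with library weights (0.45, limma adjusted p = 6.46e-03). These settings called 4.05% and 21.2% of all genes. The deposited scale was set separately for each line and stood 0.15 higher on the log2 scale in HA than in WT. A call between lines on it is therefore no support for a difference. After LPS, JAK2 was called on the deposited scale, with library weights and with a replicate block over all libraries. It was also called without the 8 or the 6 libraries low on the axis. The limma adjusted p lay between 9.21e-05 and 4.30e-03, and these fits called 2.52% to 9.37% of all genes. Deviations of HA and WT libraries of the same number after LPS correlated at r = -0.331 to 0.353. The replicate block therefore has no basis in this comparison. Between KO and HA, the log2 difference was 0.27 without LPS (-0.07 to 0.61) and 0.43 after LPS (0.09 to 0.77), and neither was called (limma adjusted p = 0.548 and 0.328).

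In SA cells, JAK2 had 300.3, 331, 309.9 and 278 without LPS and 395, 365, 431 and 400.2 after LPS, overlapping WT in both conditions. The difference from WT was -0.14 without LPS (95% confidence interval -0.48 to 0.20) and 0.03 after LPS (-0.31 to 0.37). On the deposited scale, which was set separately for each line, these values were 0.12 and 0.29, the first with the opposite sign. The log2 difference of JAK2 with LPS was 0.22 in WT, 0.49 in KO, 0.33 in HA and 0.38 in SA, and none of these was called (smallest limma adjusted p = 0.308, in KO). The libraries with and without LPS did not overlap in HA and SA and overlapped in WT and KO. In the pairs of KO libraries of the same number, however, the count after LPS was 1.46, 1.39, 1.41 and 1.37 times that before, and in the WT pairs 1.08, 1.00, 1.51 and 1.12 times. With the replicate block in the KO libraries alone the difference was not called (limma adjusted p = 0.0660). Ordered by mean, JAK2 ran from KO LPS (868) over HA LPS (630), KO (616) and HA (502) to SA LPS (398), WT LPS (391), WT (341) and SA (305), and neighbours in this order overlapped except HA and SA LPS. Several pseudogenes and INSL6, a relaxin-family gene on the opposite strand, lie within JAK2, and the strand setting of the authors' counting is not given in the sources used here.

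The other kinases, JAK1 and TYK2, differed little between groups. JAK1 (ENSG00000162434; chromosome 1, 64833223 to 65067754, minus strand), shared by all 3 receptor types, had group means of 316 to 435, lowest in untreated WT and highest in HA LPS. The HA LPS libraries, at 435, 396, 473 and 436, lay above the WT LPS libraries at 320.2, 376, 359 and 384. This log2 difference of 0.27 was not called (0.01 to 0.54, limma adjusted p = 0.279), and the difference between KO and WT was 0.01 without LPS (-0.25 to 0.28) and 0.10 after LPS (-0.16 to 0.37). TYK2 (ENSG00000105397; chromosome 19, 10350533 to 10380608, minus strand), the other kinase of the type I receptor, had group means of 403 to 494. Its largest difference from WT was in untreated KO cells, at 568, 432, 437 and 539 against 428, 417, 299 and 469.95 (log2 difference 0.30, 0.01 to 0.59, limma adjusted p = 0.314). RAVER2 overlaps JAK1 on the opposite strand.

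**Figure D2:**
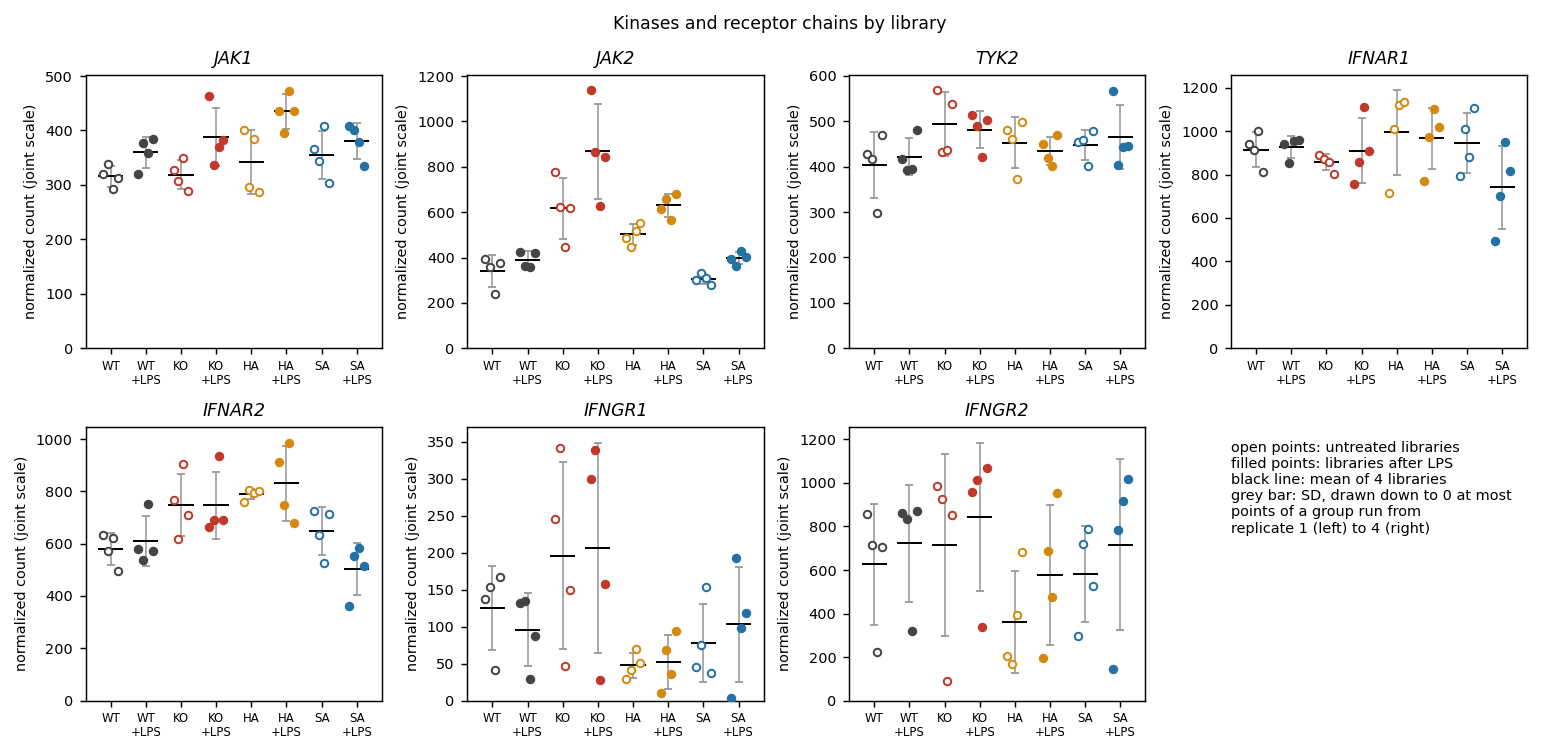
Normalized count (joint scale, vertical axis, from 0) of the kinase and receptor genes past the filter on low counts in each of the 32 libraries, by group (horizontal axis). Open points are untreated libraries, filled points libraries after LPS, in the order of the replicate numbers, black lines means of 4 libraries and grey bars SDs. For JAK2, the 16 KO and HA libraries lie at 447 to 1137 and the 16 WT and SA libraries at 237 to 431. For IFNGR2, replicate 3 of KO lies at 90.5 and the other KO libraries at 853 to 985.

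Of the type I receptor chains, IFNAR1 (ENSG00000142166; chromosome 21, 33324387 to 33359864, plus strand) had group means of 741 to 994 and no difference was called. It was lowest in SA LPS libraries, at 496, 703, 949 and 816 in replicates 1 to 4, of which replicate 1 is the lowest on the axis. There the log2 difference from WT after LPS was -0.36 (-0.70 to -0.02, limma adjusted p = 0.825). IFNAR2 (ENSG00000159110; chromosome 21, 33205282 to 33265675, plus strand) was at 759, 805, 793 and 801 in untreated HA libraries, all above the WT libraries at 631, 571, 620.5 and 497. The log2 difference of 0.45 was not called (0.12 to 0.78, limma adjusted p = 0.0858), and the KO libraries, at 765, 617, 903 and 708, overlapped those of WT. After LPS, the difference between HA and WT was 0.44 (0.11 to 0.77, limma adjusted p = 0.135). Library weights called both, beside 21.2% of all genes without LPS and 9.37% after LPS. Leaving out the 8 libraries lowest on the axis called the difference without LPS (0.50, limma adjusted p = 7.52e-03), beside 17.6% of all genes. In the main fit, 2.52% of all genes were called without LPS and 2.02% after LPS. IFNAR2, IL10RB, IFNAR1 and IFNGR2 are neighbours on chromosome 21. A readthrough transcript joins IFNAR2 and IL10RB, so that reads of either gene may have been assigned to it or left out.

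The type II receptor chains varied widely within groups. IFNGR1 (ENSG00000027697; chromosome 6, 137197483 to 137219449, minus strand) had 137, 153, 41.4 and 167 in untreated WT libraries and 245, 342, 47.3 and 149.9 in untreated KO libraries. After LPS, it had 132, 135, 29.3 and 87.2 in WT and 300.1, 339, 28.4 and 158 in KO. In each of these groups replicate 3 was lowest. In HA it was at 28.5, 40.7, 69.6 and 51.1 without LPS and at 10.4, 67.7, 35.7 and 93.4 after LPS, and in SA at 45.0, 75.0, 154 and 37.7 without LPS and at 3.47, 193, 97.5 and 118 after LPS. The highest library of a group was 2.44 to 55.7 times the lowest. The library lowest on the axis had the lowest IFNGR1 count in 7 of 8 groups.

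IFNGR2 (ENSG00000159128; chromosome 21, 33403413 to 33479348, plus strand) behaved likewise, with the library lowest on the axis also lowest for this gene in 7 of 8 groups. Untreated KO libraries had 985, 925, 90.5 and 853, and KO libraries after LPS 958, 1016, 339.8 and 1069. In WT, 859, 717, 224 and 706 stood against 863, 836, 319 and 869 after LPS. Replicate 3 was again the low library in these 4 groups. Over all 32 libraries, the deviation from the group mean correlated with the score on the axis of within-group spread with r = 0.955 for IFNGR1 and r = 0.932 for IFNGR2, across libraries that share this axis, and only 3.59% and 7.27% of the genes tested had an r as large in size. The median of the size of r over all genes was 0.632, and r was 0.526 for JAK2, 0.432 for IFNAR1 and within 0.18 of 0 for IFNAR2, JAK1 and TYK2. The deviations of IFNGR1 and IFNGR2 correlated with each other with r = 0.857. On this axis a library's score correlated with its number of genes with reads (r = 0.826) more than with its log2 depth (r = 0.241), and what separates the libraries was not tested. TMEM50B overlaps IFNGR2 on the opposite strand.

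**Figure D3:**
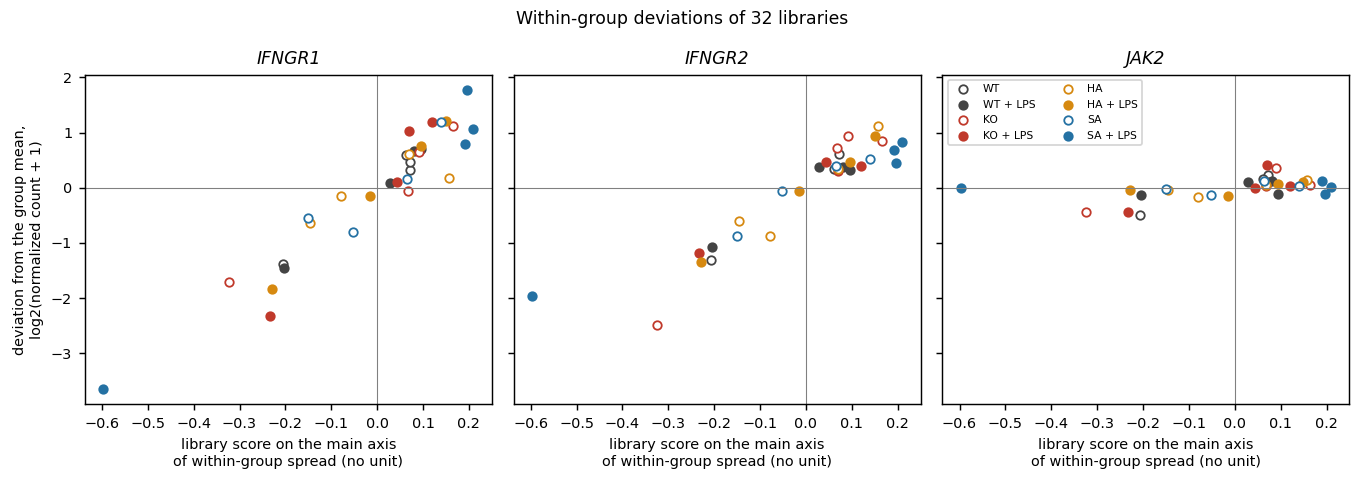
Deviation of each library from its group mean on the log2(normalized count + 1) scale (vertical axis) against its score on the main axis of within-group spread (horizontal axis, no unit) for IFNGR1, IFNGR2 and JAK2. Colours and fill mark the group. The IFNGR1 deviations run from -3.66 to 1.78 and follow the score, while those of JAK2 stay between -0.49 and 0.42.

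Differences of IFNGR1 and IFNGR2 between groups had wide intervals. Without LPS, the log2 difference of IFNGR1 between KO and WT was 0.50 (-1.35 to 2.36) and between HA and WT -1.27 (-3.13 to 0.59), and none of the differences of either gene was called. Without the 8 libraries lowest on the axis, again an alternative chosen after seeing the data, the standard error of IFNGR1 fell from 0.91 to 0.41 and that of IFNGR2 from 0.69 to 0.29. The libraries left out held the lowest count of either gene in 7 of 8 groups, so this fall was built into the choice. The p-values of that fit take no account of it and are no independent support. In that fit IFNGR1 and IFNGR2 were lower in untreated HA than in WT cells, with log2 differences of -1.52 and -1.09 (limma adjusted p = 6.96e-03 and 7.23e-03), and higher in untreated KO than in HA cells, by 2.12 and 1.36 (limma adjusted p = 1.77e-03 and 3.36e-03). After LPS, IFNGR1 was higher in KO than in HA by 2.03 (limma adjusted p = 4.77e-03), while its difference between HA and WT, -0.91, was not called. Neither gene was called between KO and WT. The same fit called 17.6% of all genes between untreated HA and WT and 8.18% between untreated KO and HA. It leaves out replicate 1 of untreated HA, which did not lie far from the next library. With this library kept and WT replicate 3 left out, in the fit without 6 libraries, the differences between HA and WT were -1.73 and -1.28 and were called too, beside 22.8% of all genes, and the HA libraries then include low scores on the axis that the WT libraries no longer have. The part of the axis in these calls cannot be told apart from the line.

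IFNLR1 (ENSG00000185436; chromosome 1, 24154168 to 24187959, minus strand), the specific chain of the lambda receptor, had 0 reads in all 32 libraries, and 0 of 324545509 reads allows up to 0.00924 reads per 1000000. In a single library the limit is 0.203 to 0.461 reads per 1000000, for counting error only. IL10RB (ENSG00000243646; chromosome 21, 33266367 to 33311420, plus strand), the chain that the lambda receptor shares with that of interleukin 10, had group means of 2262 to 2797 and was called in no comparison. Its difference from WT ranged from -0.26 in KO after LPS (-0.56 to 0.05) to 0.06 in SA after LPS. JAK3, a kinase of lymphoid cytokine receptors, had at most 3 reads in a library.

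Counted over the comparisons, JAK2 and IFNL1 of the 8 genes tested were called between KO and WT without LPS, both higher, where 2.90% of all 12406 genes were called and 1.80% were called higher. The same 2 genes were called after LPS, where 3.47% of all genes were called and 2.14% higher. IFNL1 entered the test through its level in KO, so that these counts are not read against the shares of all genes. The comparisons of KO, HA and SA with WT share the WT libraries, so that their values are given side by side. Between HA and WT, limma called 0 of 8 genes, compared with 2.52% of all genes without LPS and 2.02% after LPS (1.42% and 1.16% higher). An unadjusted p below 0.05 was found for 3 and 4 of the 8, all higher in HA, and for 3045 and 2072 of all 12406 genes. Library weights called 2 and 3 of the 8, beside 21.2% and 9.37% of all genes under the same weights. Between SA and WT, limma called 0 of 8 genes and 0% of all genes in both conditions. Without and after LPS, 0 and 1 of the 8 had an unadjusted p below 0.05, beside 445 and 646 of all genes. Between KO and HA, 0 of 8 were called, compared with 0.226% of all genes without LPS (0.202% higher) and 0.00806% after LPS. By limma, 1 and 3 of the 8 were below 0.05 before adjustment, all higher in KO, beside 1288 and 1308 of all genes.

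**Figure D4:**
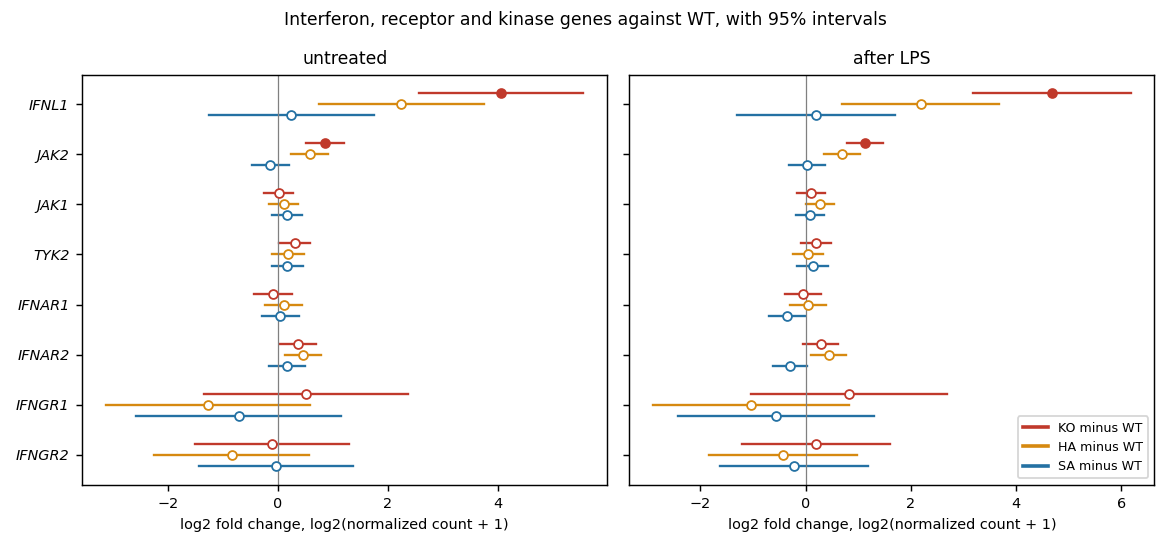
Log2 fold change on the log2(normalized count + 1) scale (horizontal axis) of KO, HA and SA cells relative to WT for the 8 genes tested, untreated (left) and after LPS (right), with 95% confidence intervals from limma. Filled points passed an adjusted p of 0.01. These are IFNL1 and JAK2 in KO, at 4.05 and 0.85 without LPS and at 4.68 and 1.12 after LPS, and the intervals of IFNGR1 and IFNGR2 span more than 2 on this scale.

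LPS called none of the 8 genes in any line, where it called 0.250% of all genes in WT, 0.580% in KO, 0.403% in HA and 0.492% in SA, most of them higher (0.250%, 0.508%, 0.387% and 0.468%). Of the 8 genes, 1 had an unadjusted p below 0.05 in WT, 3 in KO, 1 in HA and 3 in SA by limma. In the same order, 200, 673, 591 and 1222 of all 12406 genes did. With the replicate block IFNL1 was called in KO, as given above. The difference of the LPS responses between a line and WT was called for 0 of 8 genes in KO, HA and SA, compared with 0.00806%, 0% and 0% of all genes. An unadjusted p below 0.05 was found for 0 of 8, beside 175, 142 and 457 of all genes. For JAK2, the response in KO minus that in WT was 0.27 (-0.21 to 0.75), and for IFNL1 it was 0.62 (-1.50 to 2.74), a wide interval on either side of 0.

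The genes downstream of the receptors stood higher in KO and, in part, in HA cells. The lists were written with earlier results of these data known, so their direction is not independent evidence. Of 15 interferon target genes, 14 were up-regulated in KO relative to WT without LPS and 15 after LPS, with median log2 fold changes of 2.77 and 2.13, compared with -0.03 and -0.01 over all genes tested, of which 1.80% and 2.14% were called higher. GBP1, an interferon-induced GTPase, rose from 22.9 ± 9.81 normalized counts in WT to 413 ± 91.7 in KO without LPS (SD, n = 4; log2 fold change 4.16). OAS2, which makes the activator of RNase L, rose from 568 ± 65.3 to 3032 ± 549.8. In HA cells, 11 and 10 of the 15 were up-regulated, compared with 1.42% and 1.16% of all genes, with medians of 1.54 and 1.32, MX1 among them (1068 ± 317 in WT and 5148 ± 2353 in HA without LPS). In SA cells 0 of 15 were called, with medians of 0.31 and 0.68. Of the 15, 11 were higher in SA than in WT without LPS and 15 after LPS. The study's own test, DESeq2 at the same limit, found only a few genes higher in SA than in WT after LPS, GBP1 and IFIT2 among them. LPS up-regulated 6 of the 15 in WT, KO and HA cells each and 9 in SA cells, where 0.250%, 0.508%, 0.387% and 0.468% of all genes were called higher, among them IFIT2 and IFIT3, by 3.40 and 3.25 in WT.

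Between KO and HA, 4 of the 15 targets were higher in KO without LPS (GBP1, IFIT3, OAS1 and CXCL10, by 1.12 to 2.39, where 0.202% of all genes were called higher) and 0 were called after LPS, where the median was 0.94. Of the 4 carriers of the signal described here, STAT2, STAT3, IRF9 and IRF1, STAT2 and IRF1 were up-regulated in KO without LPS, and IRF1 after LPS. Of all genes, 1.80% and 2.14% were called higher in these comparisons. STAT2, the partner of IRF9 in the type I response, had a log2 fold change of 1.64 without LPS (limma adjusted p = 2.38e-04), and IRF1, a factor induced by interferon gamma, one of 0.84 without LPS and 1.75 after LPS. In HA, STAT2 was up-regulated without LPS by 1.45 and IRF1 after LPS by 1.16, and in SA 0 of 4 were called. The shares of all genes called higher were 1.42% and 1.16% in HA and 0% in SA. STAT3 and IRF9 were called in none of the comparisons with WT.

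Of 12 inhibitors of the pathway, 1 was up-regulated in KO without LPS, USP18, a protease that removes ISG15 and holds back signalling at IFNAR2 (log2 fold change 2.79, limma adjusted p = 2.69e-03). Its KO libraries ranged from 265 to 1392 and its WT libraries from 41.5 to 124. The other 11 inhibitors, SOCS1 and SOCS3 among them, were not called, and after LPS and in HA and SA 0 of 12 were called. USP18 was nevertheless higher in HA than in WT without LPS, with means of 432 and 76.0 (log2 fold change 2.33, limma adjusted p = 0.0154). After LPS its means were 704 in KO, 704 in HA, 560 in SA and 190 in WT. SOCS1 had means of 156 in KO and 13.1 in WT after LPS. Of the 12, 8 were higher than in WT in KO after LPS, and 8 in HA without LPS. Of all genes, 1.80% were called higher in KO without LPS. In either direction, 3.47% were called in KO after LPS, 2.52% and 2.02% in HA without and after LPS, and 0% in SA. Of 14 genes on the way from TLR4 to IFNB1, 13 were tested. CD14, the co-receptor of TLR4 for LPS, and IRF7, a factor that induces interferon genes, were up-regulated in KO without LPS, by 1.66 and 1.93 on the log2 scale. They are 2 of 13, beside 1.80% of all genes called higher. After LPS, JUN, a subunit of AP-1, was up-regulated in KO by 0.77, and CD14 was down-regulated in HA relative to WT (log2 fold change -1.37; 22.3 ± 8.81 in HA and 55.9 ± 5.48 in WT). After LPS, 2.14% of all genes were called higher in KO and 2.02% in either direction in HA. CD14 was also higher in KO than in HA without LPS, by 1.85, and it fell with LPS in KO, HA and SA cells. CD14 is also among the 10 monocytic markers above.

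**Figure D5:**
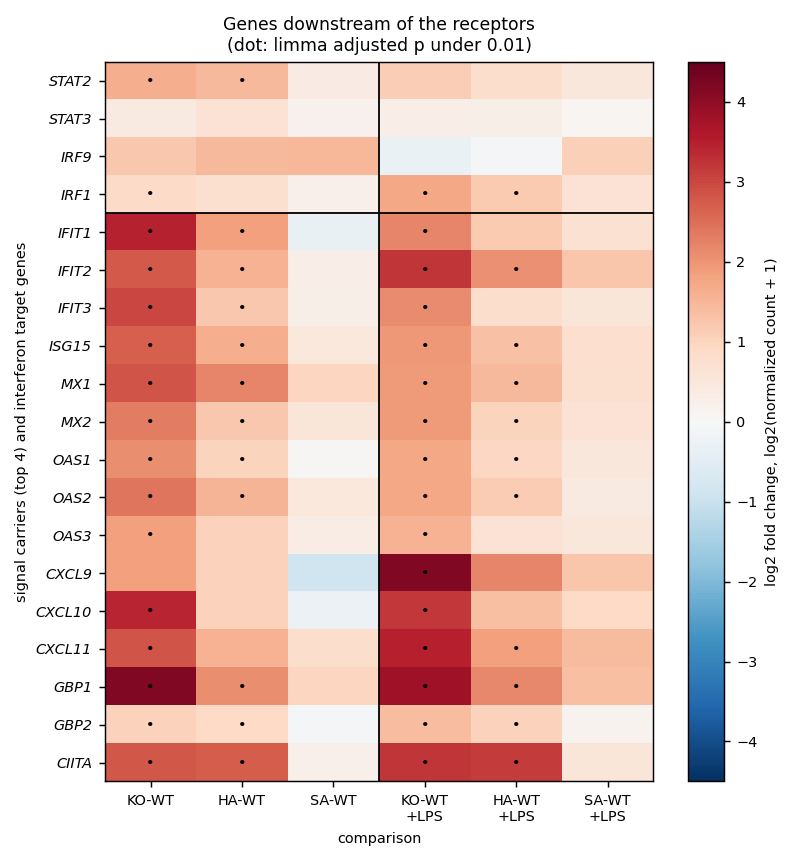
Log2 fold change relative to WT on the log2(normalized count + 1) scale (colour, red higher and blue lower than WT) of 4 signal carriers and 15 interferon target genes (rows) in KO, HA and SA cells without LPS (left of the black line) and after LPS (right). A dot marks a limma adjusted p under 0.01. Dots fill the KO columns for 14 and 15 of the 15 targets, part of the HA columns for 11 and 10, and are missing from the SA columns.

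Among all genes, the group means most like those of JAK2 on the log2 scale were those of ASCL2, a transcription factor (Pearson r = 0.991 over 8 groups), and GBP2, an interferon target (r = 0.990). For IFNL1 they were those of MAFF (r = 0.988), a small MAF transcription factor, and TOR1B (r = 0.987). For the receptor chains, they included CSGALNACT1 for IFNAR1 and were CCDC171 and ZFYVE16 for IFNAR2, CCNB1 and SHMT1 for IFNGR1, and ZNF273 and CLIC4 for IFNGR2, with r between 0.970 and 0.993. For JAK1 and TYK2, whose means differ little, they were SERF2 and SNX11, and RRP9 and P2RY6, with r between 0.936 and 0.951. These are the highest of 12336 correlations over 8 points each and describe the means only.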

How the data were processed

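Counts per gene were obtained for 32 THP-1 cultures, 4 in each of 8 groups, which were taken from the labels. The authors used Bbduk for trimming, STAR for mapping to GRCh38 and HTSeq-count for counting, as their methods state, and versions, annotation release and strand setting are not given in the sources used here. The deposited values are normalized counts that the authors made with DESeq2, another unit than raw counts, and the tables of each line had been scaled on their own. Within 0.05 reads, 100% of the nonzero values of a library were whole multiples of a constant, so that reads could be recovered. A shared scale was then set with median-of-ratios factors over the genes tested, under which most genes are taken as not changed. The 92 spike-in controls were dropped. Molecular identifiers were not counted, so limits from 0 reads cover counting error only.

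A gene was tested if its deposited mean was 10 or more, which held for 12406 genes. The model in limma 3.58.1 (R 4.3.3) had the 8 group means, with a trend of the variance on expression, and used log2(normalized count + 1), on which changes of low genes come out too small. Benjamini-Hochberg adjustment ran over all genes in each of 15 comparisons, and an adjusted p under 0.01 is a call, the study's own limit. The code was tested on simulated data. IFNB1, which was under the filter, was compared by exact permutation. A chi-square per gene of 4.74 to 291 between libraries of a group spoke for separate libraries. Gene positions are those of GENCODE release 44 and start regions those of RefSeq for GRCh38.p14.

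Alternatives were the deposited scale, a pseudocount of 5, no filter, fits of the compared groups only, replicate blocks, library weights and leaving out single libraries. Leaving out the 8 libraries lowest on the axis of within-group spread, or only the 6 of them whose gap to the next was over 0.5 of the range of their group, was chosen after seeing the data. For pairing, deviations from the group means were correlated across genes between libraries of the same number. Every r was over 0.1 among WT and KO libraries with or without LPS (0.124 to 0.723), which was not so for pairs with HA or SA.

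The 10 genes and the lists were chosen with earlier results of these data known. Named are these genes, ACLY, IL10RB, JAK3, up to 4 genes of other lists by lowest adjusted p in a comparison, and the 2 genes most like each of the 8 tested genes. STAT3, IRF9, SOCS1, SOCS3, IFNG, the interferons with reads, the targets called between KO and HA, LYZ, PAX5 and the overlapping genes were named after their values were seen. Some items that this rule or these lists would name are not reported here.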

Additional observations from a re-analysis of the deposited data

Results flagged for a closer look

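In 9 of 68 groups of 4 libraries, 1 library lay far from the other 3 for 1 of the genes described. The rate of about 1 in 20 by chance holds for separate groups of normal values and does not apply here. Of the 9 flagged, 4 are single libraries with few reads of a ligand, which are always flagged when the other 3 hold none. IFNB1 was at 1.734 normalized counts (2 reads) in WT LPS replicate 2, at 2.208 (3 reads) in HA LPS replicate 2 and at 0.855 (1 read) in SA LPS replicate 4, with no read in the other libraries of these groups. IFNL1 was at 0.9431 (1 read) in SA replicate 4 and at 0 in the other SA libraries.

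IFNGR2 was lowest, far from the rest, in replicate 3 of 3 groups, with 90.55 in KO (853 to 985 in the others), 318.9 in WT LPS (836 to 869) and 339.8 in KO LPS (958 to 1069). These are the libraries lowest in their groups on the axis of within-group spread. IFNAR2 was highest in KO LPS replicate 3, at 936.7 (664 to 692 in the others). IFNAR1 was lowest in WT LPS replicate 2, at 851.5 (941 to 957).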

How the results depend on the processing

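Of the 8 genes tested, 2 were called between KO and WT without LPS, and 1 of them, IFNL1, when only the groups compared were fitted. Leaving out single libraries gave 1 to 2, with 1 (IFNL1) without KO replicate 1. Between HA and WT without LPS, 0 became 1 on the deposited scale (JAK2), 2 with library weights (IFNAR2 and JAK2) and 3 without the 8 or the 6 libraries low on the axis (IFNAR2 higher, IFNGR1 and IFNGR2 lower). After LPS, 0 became 1 (JAK2) on the deposited scale, 1 (JAK2) with the replicate block over all libraries, 3 (IFNAR2, IFNL1 and JAK2) with library weights and 1 (JAK2) without the 8 or the 6 libraries. Between KO and HA, leaving out the 8 or the 6 libraries called 2 genes without LPS (IFNGR1 and IFNGR2) and 1 after LPS (IFNGR1). With the replicate block in a fit of only the groups compared, LPS called 1 gene in KO (IFNL1). Library weights and the fits without these libraries also called more of all genes, 21.2%, 17.6% and 22.8% between untreated HA and WT. After LPS these shares were 9.37%, 4.72% and 2.89%, and 2.52% with the replicate block over all libraries. On the deposited scale, which was set separately for each line, they were 4.05% without and 2.84% after LPS. Between KO and HA, the fits without 8 and 6 libraries called 8.18% and 11.8% without LPS and 1.95% and 0.83% after LPS. The replicate block in KO called 0.935%. The cause of these changes was not tested. The blocks changed no other call among the 8 genes. The IFNB1 difference ranged from 18.91 to 46.66 against untreated KO and from 19.06 to 46.81 against WT after LPS with single libraries left out, the highest values being those without KO LPS replicate 3 (exact permutation p = 0.0286 for each). Leaving out any other single library gave an exact permutation p of 0.143 or 0.257. No called value changed sign. Count tests with edgeR and DESeq2, also planned, were not run, although reads could be recovered. The low reads limit IFNB1 and IFNL1, and the spread between libraries limits IFNGR1 and IFNGR2.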
